A study of Arabidopsis thaliana with 6 samples.

Results

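SPCH (SPEECHLESS, AT5G53210) and FAMA (AT3G24140, listed as FMA in the gene table) are the 2 genes described here, out of 13286 Arabidopsis thaliana genes that have a probe set named with that gene alone. Each has 1 such probe set on the Affymetrix ATH1 array, a single-colour chip that reads labelled RNA on short oligonucleotides. The members were chosen by name, though with earlier results of these data known. RNA came from seedlings of the pvip1 pvip2 double mutant (3 arrays) and of Col-0, the standard laboratory accession (3 arrays), all grown on agar for 10 days after germination under long days. Col-0 roots were taken off, and a cut through the vestigial hypocotyl gave the mutants a wound too. The PVIP genes encode PHD-finger proteins that act in meristem formation, and neither the alleles nor the number of seedlings per sample is given in the sources used here.

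Stomata are pores of the shoot epidermis, each bordered by a pair of guard cells, and they form through a short series of divisions. SPCH, a basic helix-loop-helix (bHLH) transcription factor, starts the lineage by driving the first asymmetric divisions. MUTE, a related bHLH protein, ends those divisions, and FAMA stops the last division and sets guard cell identity. Secreted EPF and EPFL peptides, read by receptors at the cell surface, act on SPCH through a kinase cascade, so that most EPF peptides hold the lineage back while EPFL9 (STOMAGEN) promotes it.

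All values are log2 signals as deposited, and changes are pvip1 pvip2 minus Col-0. A probe set was tested if its mean over the 6 arrays reached 3.81, the 40th percentile, and changes count as called where limma gave an adjusted p (Benjamini-Hochberg over all 13648 tested probe sets) under 0.05. LHCB4.1 and RCA of green leaf cells lay near the top of the scale in all arrays. The root hair genes EXPA7 and EXPA18 averaged under the tested level in both genotypes but read 4.29 and 4.23 in pvip1 pvip2 replicate 2. PYK10, the other measured root gene, averaged 11.8 ± 0.020 in pvip1 pvip2 and 10.0 ± 0.042 in Col-0 (SD, n = 3 each). Taking off roots in Col-0 and cutting the hypocotyl in the mutant went with genotype, so these cannot be told apart at PYK10. The array labelled Col-0 replicate 1 (from here Col-0-labelled replicate 1) goes against its label at OBE1, a PVIP gene under its other name. OBE1 read 2.54, 2.61 and 2.53 in the mutant arrays and 2.42 in that array, against 5.08 and 5.17 in Col-0 replicates 2 and 3. At PYK10 the same array read with its label, at 10.06 against 10.01 and 9.98 in Col-0 replicates 2 and 3. It also did so at EPFL9, at 7.65 against 7.44 and 7.67. The cause of its OBE1 value was not tested. Col-0 replicate 3 stands apart in RNA quality, with a 3' over 5' difference of 2.31 at the GAPDH control probes against 0.55 to 1.08 in the other arrays. Results below are given with and without these arrays where they matter, and means, changes and tests for Col-0 take all 3 arrays so labelled unless stated. The fluidics modules were even-numbered for each mutant array and odd-numbered for each Col-0-labelled array, so module and genotype cannot be told apart.

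SPCH was lower in every mutant array than in any Col-0-labelled array, with a signal about 33.7% below that of Col-0, but the difference did not pass the test over all probe sets. It read 4.02, 3.73 and 3.72 in pvip1 pvip2 replicates 1, 2 and 3, against 4.49, 4.53 and 4.23 in Col-0-labelled replicate 1 and Col-0 replicates 2 and 3. The highest mutant array lay 0.21 below the lowest Col-0-labelled array, so the genotypes did not overlap. The spread within each genotype was alike, with 3.82 ± 0.17 in pvip1 pvip2 and 4.42 ± 0.16 in Col-0 (SD, n = 3 each). The change was -0.59 (SE 0.18, 95% interval -1.005 to -0.18), which as a ratio is 0.663 with an interval of 0.498 to 0.882. Its adjusted p from limma was 0.0513, and its unadjusted p of 0.0107 stood at rank 2847 of 13648, just beyond the 2803 probe sets (20.5%) that were called in either direction. Mutant replicates 2 and 3 read below 3.81, so SPCH lies at the low end of the tested range and the size of its change depends on how background was treated before deposit.

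FAMA was lower in every mutant array as well, at a ratio of 0.662 (95% interval 0.491 to 0.891), and it too missed the threshold. It read 5.07, 4.59 and 5.01 in pvip1 pvip2 replicates 1, 2 and 3, against 5.53, 5.44 and 5.49 in Col-0-labelled replicate 1 and Col-0 replicates 2 and 3. The genotypes were 0.37 apart at their nearest arrays and did not overlap. The 3 Col-0-labelled arrays lay within 0.096 of each other, while the mutant arrays spanned 0.48 because pvip1 pvip2 replicate 2 was low. The means were 4.89 ± 0.26 in pvip1 pvip2 and 5.49 ± 0.048 in Col-0 (SD, n = 3 each), with a change of -0.60 (SE 0.19, 95% interval -1.03 to -0.17). The adjusted p from limma was 0.0576, and the unadjusted p of 0.0128 stood at rank 3032 of 13648. FAMA lay above the tested level in all 6 arrays, by 0.78 in the lowest.

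**Figure D1:**
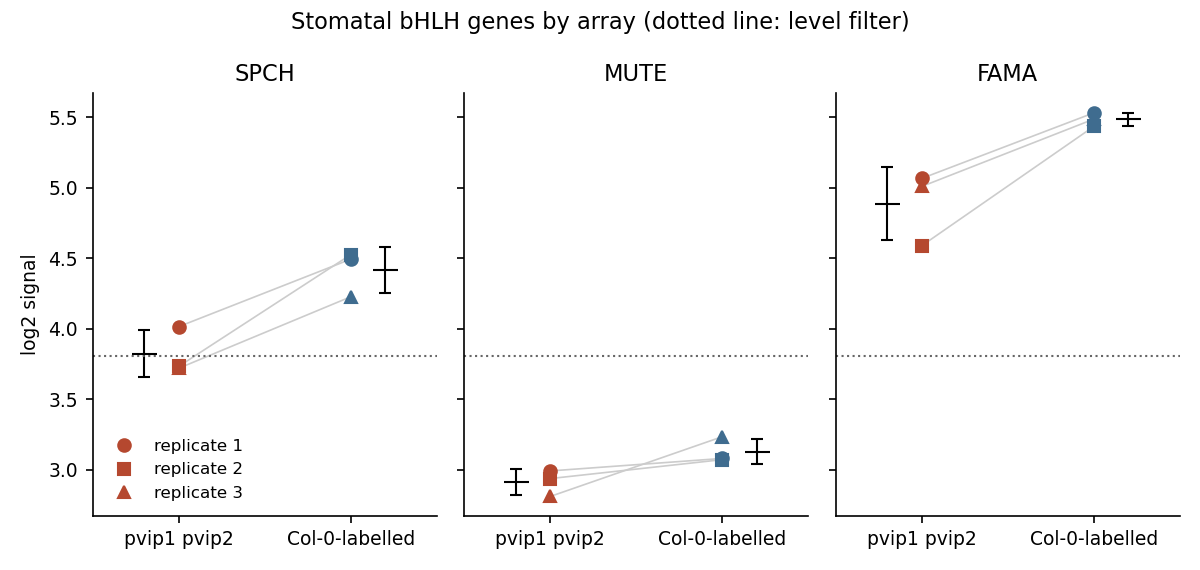
Log2 signal of SPCH, MUTE and FAMA on each array, with pvip1 pvip2 on the left and the Col-0-labelled arrays on the right of each panel. Marker shapes give the replicate number, grey lines join arrays of the same number, black bars are means ± SD (n = 3) and the dotted line is the tested level of 3.81. The mutant arrays of SPCH lie between 3.72 and 4.02 and those of FAMA between 4.59 and 5.07, all below the Col-0-labelled arrays of the same gene.

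Neither gene was called in a comparison that called 1386 of 13648 tested probe sets (10.2%) lower in the mutant. Lack of overlap in the lower direction, which both showed, was found in 2968 tested probe sets (21.7%). A change of the size seen was not rare either: 14.1% of tested probe sets changed by as much as SPCH or further in the negative direction, and 13.9% did so for FAMA. The median change over all tested probe sets was -0.050. An exact two-sided permutation test over the arrays gave p = 0.1 for SPCH and p = 0.1 for FAMA, the smallest value that 3 against 3 arrays allow.

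Arrays of the same replicate number were taken as pairs across genotypes, which the labels do not state. Within each pair both genes were lower in the mutant. The paired differences of SPCH were -0.48, -0.79 and -0.51 for numbers 1, 2 and 3, and those of FAMA were -0.46, -0.85 and -0.48. Both genes thus differed most in the second pair. With the replicate number as a block in limma both were called, SPCH at an adjusted p of 0.042 and FAMA at 0.0369, in a fit that called 15.8% of tested probe sets lower. The blocked call of SPCH was lost without Col-0-labelled replicate 1 (-0.65, adjusted p = 0.0903) and without Col-0 replicate 3 (-0.64, adjusted p = 0.0571). That of FAMA was lost without Col-0-labelled replicate 1 (-0.66, adjusted p = 0.0915), and stood without Col-0 replicate 3 (-0.66, adjusted p = 0.0395). Leaving out 1 array also takes the difference of its pair out of the blocked fit. No other array was left out of that fit, so the losses cannot be tied to these arrays in particular.

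Without the block, leaving out any 1 array kept both changes negative and uncalled. SPCH then ran from -0.69 to -0.54 and FAMA from -0.69 to -0.45. Without Col-0-labelled replicate 1 the changes were -0.55 for SPCH (adjusted p = 0.105) and -0.57 for FAMA (adjusted p = 0.112). Without Col-0 replicate 3 they were -0.69 for SPCH (adjusted p = 0.0607) and -0.59 for FAMA (adjusted p = 0.126). The value of FAMA closest to 0 came from leaving out pvip1 pvip2 replicate 2, its low array (-0.45, adjusted p = 0.18). On the first fluidics station alone, which held replicates 1 and 2 of both genotypes, SPCH stood at -0.64 (adjusted p = 0.168) and FAMA at -0.66 (adjusted p = 0.2). The second station held replicate 3 of each genotype, whose differences are the third pair above and allow no test. With 64 added to the linear signal before taking logs, which shrinks changes at weak probe sets, SPCH stood at -0.13 (adjusted p = 0.0568) and FAMA at -0.21 (adjusted p = 0.0493).

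**Figure D2:**
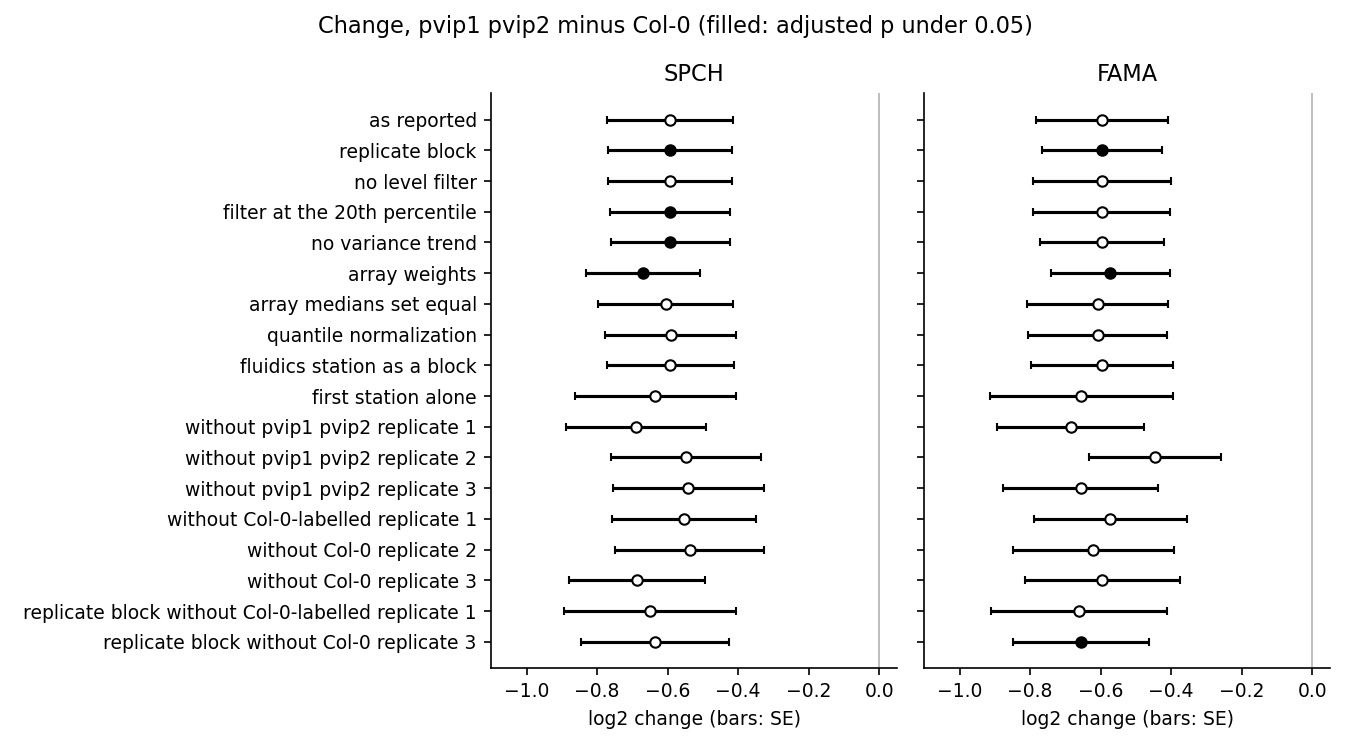
Change in log2 signal, pvip1 pvip2 minus Col-0, for SPCH (left) and FAMA (right) under each processing choice on the log2 scale, with bars for the SE and filled points for an adjusted p under 0.05. All points lie between -0.69 and -0.45, while the filled ones are few, 4 for SPCH and 3 for FAMA.

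The 2 genes were then compared with each other within each array, where a difference between probe sets shows unequal change and says nothing of their levels. FAMA minus SPCH was 1.05, 0.856 and 1.29 in pvip1 pvip2 replicates 1, 2 and 3, against 1.04, 0.909 and 1.26 in Col-0-labelled replicate 1 and Col-0 replicates 2 and 3. Arrays of the same number were close to each other, and the genotypes overlapped fully. The means were 1.07 ± 0.22 in pvip1 pvip2 and 1.07 ± 0.18 in Col-0 (SD, n = 3 each), a difference of -0.0034 (exact two-sided permutation p = 1). When each array was left out in turn the difference ran from -0.12 to 0.10. The permutation test and this range take no account of the replicate number, and an unequal change within pairs was not tested.

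MUTE, the bHLH gene that acts between SPCH and FAMA, lay below the tested level and was examined without the level filter. It read 2.99, 2.94 and 2.81 in the pvip1 pvip2 arrays, against 3.08, 3.07 and 3.24 in the Col-0-labelled arrays. The genotypes did not overlap, yet the difference was -0.22 (SE 0.11) with an adjusted p of 0.259 over all 22746 probe sets. All 3 measured members of the list of stomatal bHLH genes and their partners read lower in pvip1 pvip2, as did 54.5% of all tested probe sets. Limma called 0 of the 2 tested, against 10.2% of tested probe sets called lower, and both had an unadjusted p under 0.05, as did 18.4% of tested probe sets in the lower direction. ICE1 and SCRM2, the bHLH partners with which SPCH, MUTE and FAMA pair, were not analysed here.

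The closest relatives of SPCH and FAMA, the other bHLH proteins of subfamily Ia, showed no common direction. Of 7 relatives, 4 had a probe set of their own and 1 passed the level filter. That one, BHLH57 (AT4G01460), changed by -0.036 (SE 0.25, adjusted p = 0.939). BHLH67 (AT3G61950) rose when tested without the filter, by 0.94 (SE 0.16, adjusted p = 0.00695), in a fit that called 6.85% of all 22746 probe sets higher. It read 3.68, 3.37 and 3.95 in the pvip1 pvip2 arrays, against 2.83, 2.70 and 2.64 in the Col-0-labelled arrays, near the bottom of the scale, and was not called on the first station alone (adjusted p = 0.0793). BHLH99 (AT5G65320) rose by 0.54 (SE 0.14, adjusted p = 0.0395 without the filter). Its call was lost when any 1 array other than pvip1 pvip2 replicate 2 was left out (adjusted p from 0.074 to 0.13). BHLH94 (AT1G22490) stood at -0.28 (adjusted p = 0.211 without the filter). The genotypes did not overlap for BHLH67 and BHLH99, both higher in the mutant, while they did for BHLH57 and BHLH94. The 21.7% given above is for tested probe sets in the lower direction. The share in the higher direction was not counted, so BHLH67 and BHLH99 have no matching share.

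Upstream of SPCH, the RNA of the peptide gene EPFL9 was lower in the mutant. EPFL9 (STOMAGEN, AT4G12970) is made in the inner leaf tissue and promotes stomatal formation by competing with inhibitory EPF peptides at their receptors. It read 6.31, 5.10 and 5.74 in pvip1 pvip2 replicates 1, 2 and 3, against 7.65, 7.44 and 7.67 in Col-0-labelled replicate 1 and Col-0 replicates 2 and 3. All mutant arrays lay more than 1 log2 unit below all Col-0-labelled arrays, and pvip1 pvip2 replicate 2 was the lowest, as it was for FAMA. The change was -1.87 (SE 0.29, adjusted p = 0.0039), or a ratio of 0.273 (95% interval 0.171 to 0.435). Without Col-0-labelled replicate 1 it was -1.84 (adjusted p = 0.0114), and on the first station alone it was -1.84 and no longer called (adjusted p = 0.0644). Whether EPFL9 changed more than SPCH or FAMA was not tested.

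**Figure D3:**
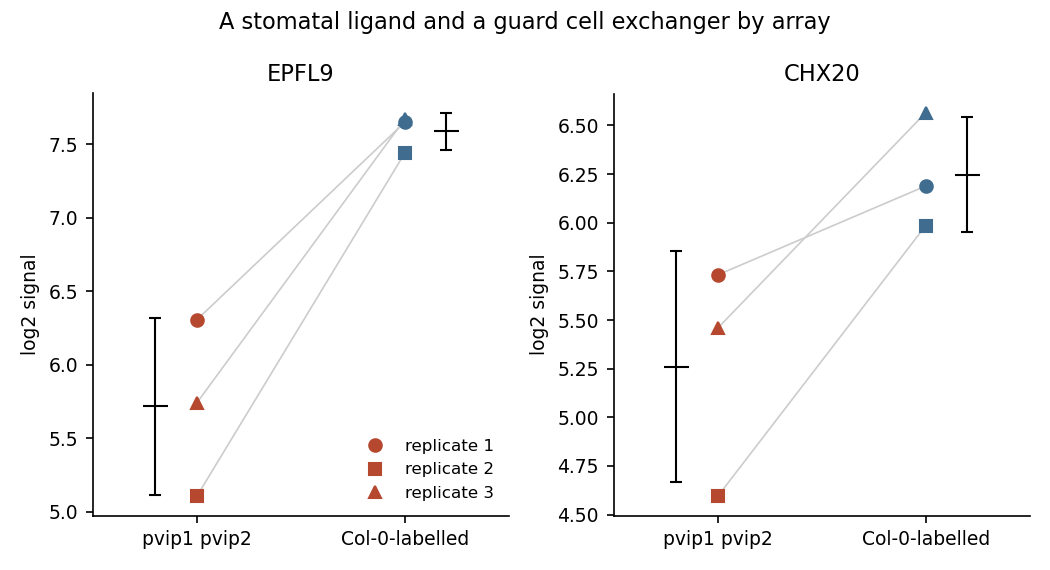
Log2 signal of EPFL9 and of CHX20, a cation exchanger of guard cells, on each array, with pvip1 pvip2 on the left and the Col-0-labelled arrays on the right. Marker shapes give the replicate number, grey lines join arrays of the same number and black bars are means ± SD (n = 3). EPFL9 lies between 5.10 and 6.31 in the mutant arrays, below every Col-0-labelled array, and the mutant arrays of CHX20 lie between 4.59 and 5.73, also below every Col-0-labelled array.

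In all, 59 genes were listed for the stomatal pathway, SPCH and FAMA included, and 8 of them had a probe set of their own. Of those 8, 7 read lower in pvip1 pvip2, beside the 54.5% given above for tested probe sets, to which MUTE and BRXL2 do not belong. The median change of the 8 was -0.59, which is the midpoint of SPCH and FAMA themselves. Among the 6 that passed the level filter, 2 were called lower and 0 higher, against 10.2% and 10.4% of tested probe sets. With the replicate block 4 of the 6 were called lower, SPCH and FAMA being the additions, in a fit that called 15.8% of tested probe sets lower. As given above, both additions were lost without Col-0-labelled replicate 1, and that of SPCH was also lost without Col-0 replicate 3. The blocked call of SOL1, described below, was lost without Col-0-labelled replicate 1 (adjusted p = 0.0629) and without Col-0 replicate 3 (0.0848). That of EPFL9 stood in both fits. None of the 8 listed receptors and none of the 9 listed kinases had a probe set named with it alone, so the path between ligand and SPCH was not analysed here.

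The other called gene of the pathway was SOL1 (AT3G22760), a TSO1-like protein that acts in the fate transitions of the lineage. It read 4.19, 4.05 and 3.76 in the pvip1 pvip2 arrays, against 4.68, 4.61 and 4.69 in the Col-0-labelled arrays. The genotypes did not overlap, and the change was -0.66 (SE 0.18, adjusted p = 0.0344). The call was lost when any 1 array other than pvip1 pvip2 replicate 1 was left out (adjusted p from 0.0686 to 0.114), with the value between -0.69 and -0.54. With 64 added before taking logs the change was -0.16 and still called (adjusted p = 0.0319).

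BRXL2 (AT3G14000), of the BRX family of proteins that sit at the polar cortex of dividing lineage cells, lay under the tested level on average. It read 3.12, 3.45 and 3.25 in the pvip1 pvip2 arrays, against 4.17, 3.97 and 4.21 in the Col-0-labelled arrays. Without the level filter its change of -0.84 (SE 0.16) was called (adjusted p = 0.0102), in a fit that called 6.51% of all probe sets lower. The call was lost on the first station alone (adjusted p = 0.121) and with the block and without Col-0-labelled replicate 1 (adjusted p = 0.0598). CRSP (AT1G20160, ATSBT5.2 in the gene table), a protease that cleaves the peptide EPF2, stood at -0.21 (SE 0.31, adjusted p = 0.683). AGL16 (AT3G57230), a MADS factor linked to the number of satellite stomata, stood at 0.033 (SE 0.30, adjusted p = 0.955). Both overlapped between genotypes, and their intervals of -0.93 to 0.51 and -0.66 to 0.72 also hold the changes of SPCH and FAMA.

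**Figure D4:**
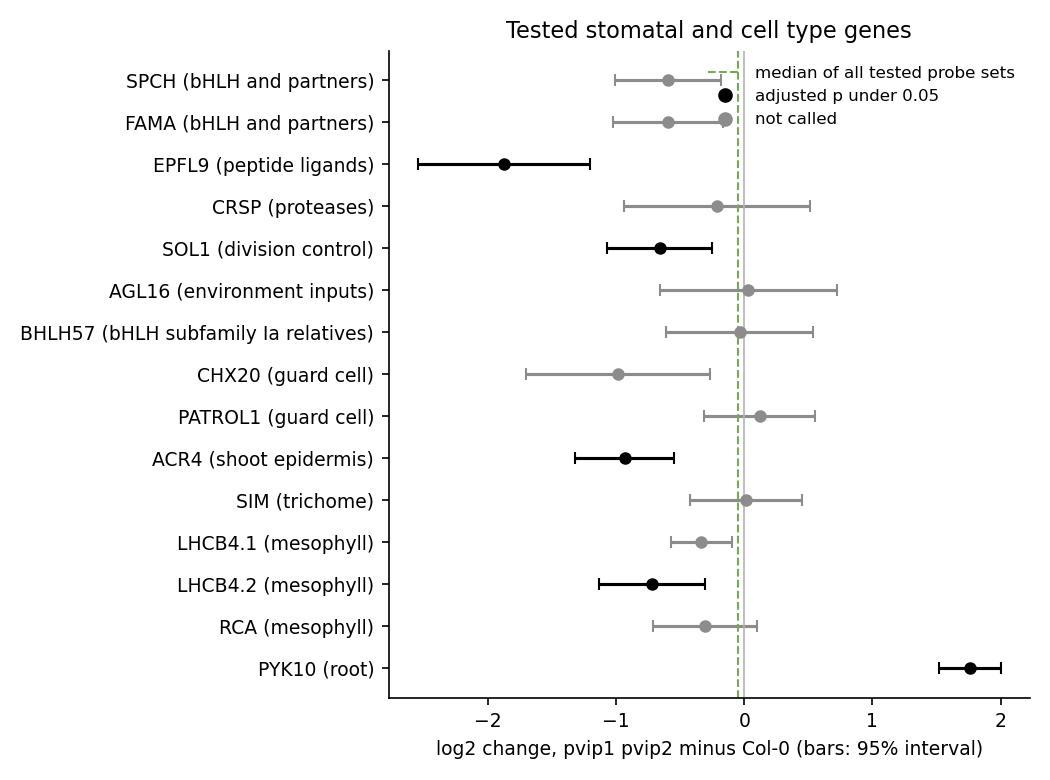
Change in log2 signal, pvip1 pvip2 minus Col-0, with 95% intervals from limma, for SPCH, FAMA and the other tested genes of the stomatal, bHLH and cell type lists. Black points were called at an adjusted p under 0.05, grey points were not, and the dashed line marks the median of all tested probe sets at -0.050. SPCH and FAMA lie at -0.59 and -0.60, with intervals that end below 0, and EPFL9 lies at -1.87.

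Genes of the cell types around and after the lineage are given as context, since fewer cells of a type and less RNA per cell cannot be told apart in RNA of whole shoots. Of 17 guard cell genes 2 were measured, CHX20 and PATROL1, and their summed linear signal ran from 161 to 168 in pvip1 pvip2 and from 173 to 201 in Col-0. CHX20 (AT3G53720) read 5.73, 4.59 and 5.46 in the pvip1 pvip2 arrays, against 6.19, 5.99 and 6.57 in the Col-0-labelled arrays. The genotypes did not overlap. Its change of -0.99 (SE 0.31) had an adjusted p of 0.0595, or 0.0136 with the replicate block. PATROL1 (AT5G06970), which helps deliver a proton pump to the guard cell membrane, stood at 0.12 (SE 0.19, adjusted p = 0.702).

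Of 11 genes of the shoot epidermis only ACR4 (AT3G59420, CR4 in the gene table), a receptor kinase of the outer cell layer, was measured, and its log2 signal changed by -0.93 (SE 0.17) with an adjusted p of 0.00725, or 0.0539 on the first station alone. Its linear signal ran from 16.5 to 17.8 in pvip1 pvip2 and from 28.8 to 35.9 in Col-0. This marker was thus lower in the mutant, as SPCH and FAMA were, beside the 10.2% of tested probe sets called lower. Among the mutant arrays ACR4 was lowest in replicate 1, where SPCH and FAMA were highest. The 3 measured of 10 mesophyll genes summed to between 12229 and 15697 in pvip1 pvip2 and to between 17162 and 19108 in Col-0. Beside the 10.2% of tested probe sets called lower, 1 of the 3 was called. That was LHCB4.2, a light-harvesting protein, at -0.72 (SE 0.18, adjusted p = 0.0271). Its call was lost without Col-0-labelled replicate 1 (adjusted p = 0.0599) or Col-0 replicate 2 (0.102). It was also lost without pvip1 pvip2 replicate 2 (0.0643) or 3 (0.0800). LHCB4.1, of the same family, stood at -0.33 (SE 0.10, adjusted p = 0.0553), and RCA, which activates Rubisco, stood at -0.30 with genotypes that overlapped (SE 0.18, adjusted p = 0.269). The 2 measured of 10 trichome genes, TRY and SIM, overlapped, with sums of 75.7 to 109 in pvip1 pvip2 and 83.9 to 106 in Col-0. The 3 measured of 10 root genes summed to between 3505 and 3581 in pvip1 pvip2 and to between 1028 and 1092 in Col-0, almost all of it from PYK10, a beta-glucosidase that rose by 1.76 (SE 0.10, adjusted p = 8.86e-05). EXPA7 and EXPA18 were highest in pvip1 pvip2 replicate 2, at 4.29 and 4.23, the array in which FAMA and EPFL9 were lowest. PYK10 did not peak there, at 11.76 against 11.78 and 11.80 in pvip1 pvip2 replicates 1 and 3. The part of these cell types in the values of SPCH and FAMA was not tested.

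Finally, the genes whose log2 signals over the 6 arrays followed SPCH and FAMA most closely were sought among 7297 other tested probe sets with 1 gene. Likeness was Pearson's r over the 6 arrays, which mostly reflects the difference between genotypes that all arrays share, so it is a description. For SPCH 98 probe sets had an r above 0.95, and for FAMA 193 did. The 5 most like SPCH were AT1G74470, which encodes geranylgeranyl reductase of chlorophyll synthesis (r = 0.990), CP5 (r = 0.989), AT1G52510 (r = 0.989), AT2G04790 (r = 0.987) and AT5G64780 (r = 0.986). The 5 most like FAMA were DER2.1 of the derlin family (r = 0.996), PRA1.F1 (r = 0.994), AT2G20670 (r = 0.993), AT5G58950 (r = 0.992) and AT4G28150 (r = 0.992). SPCH and FAMA were not among the closest to each other, with an r of 0.880, at place 495 in the order for SPCH and 600 in that for FAMA. After the genotype means were taken out, r between them was 0.374.

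Both profiles were low in the mutant, but they differed in which arrays departed within a genotype. SPCH and its closest genes were highest among mutant arrays in replicate 1 and lowest among Col-0-labelled arrays in replicate 3. FAMA and its closest genes were lowest in pvip1 pvip2 replicate 2, with the Col-0-labelled arrays close together except for AT2G20670. Genes picked for following SPCH or FAMA over these arrays are low in the mutant largely by that choice, so their calls are given as a description, beside the 10.2% of tested probe sets called lower. Of the 5 genes most like SPCH all were called lower, with changes from -1.19 for AT5G64780 (SE 0.24, adjusted p = 0.0125) to -0.49 for AT1G74470 (SE 0.12, adjusted p = 0.0264). Of the 5 most like FAMA 3 were called lower, led by AT2G20670 at -1.50 (SE 0.37, adjusted p = 0.0255) and PRA1.F1 at -1.38 (SE 0.28, adjusted p = 0.0113). DER2.1 and AT4G28150 stood at -0.62 and -0.64 and were not called, or were called with the replicate block (adjusted p = 0.0292 and 0.037). Of the 8 calls, that of CP5 alone stood on the first station by itself (adjusted p = 0.045).

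**Figure D5:**
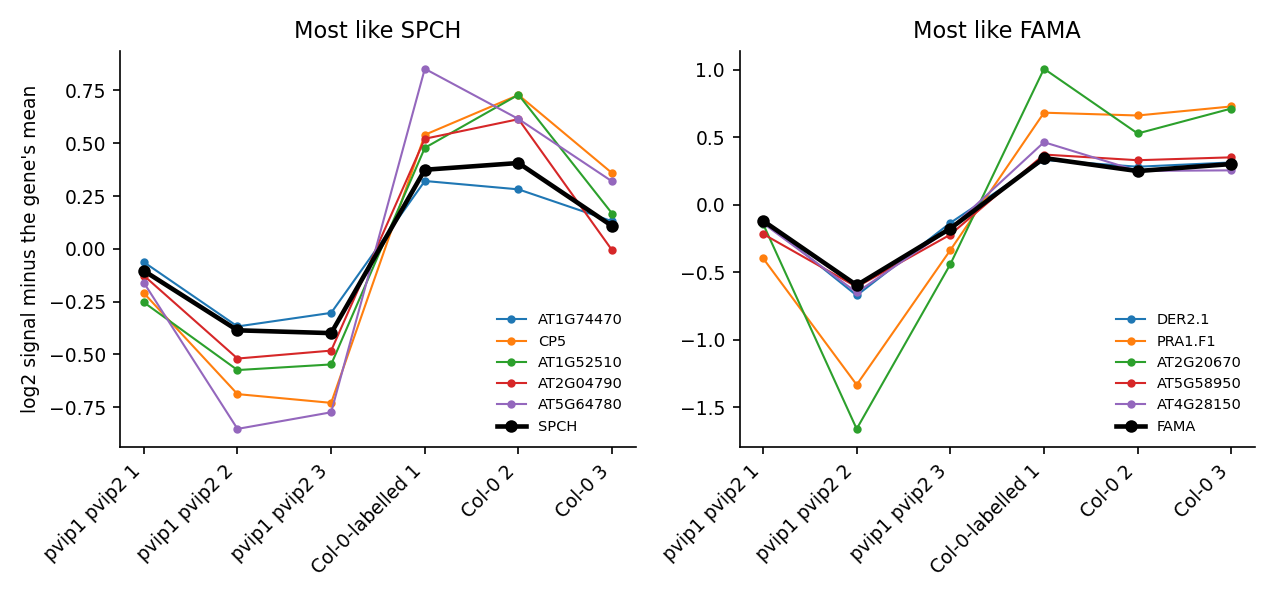
Log2 signal minus the gene's mean over 6 arrays, for SPCH (left, black) and FAMA (right, black) with the 5 genes most like each (colours), by array with pvip1 pvip2 first. The SPCH set is lowest in pvip1 pvip2 replicates 2 and 3, while the FAMA set dips at pvip1 pvip2 replicate 2.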

How the data were processed

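RNA of 6 samples was measured on Affymetrix ATH1 arrays. The deposited table holds log2 signals of 22810 probe sets, and how the authors summarised, background-corrected and normalized them is a step the sources used here do not give. The submitters' processing notes name GCOS without a version. Base 2 was inferred from the highest value, 13.4. After 64 controls were left out, 13513 of 22746 probe sets had 1 gene, 503 had several and 8730 were unnamed here. Names came from the platform annotation and the TAIR10.1 gene table, and no coordinates or sequences are given. limma 3.58.1 in R 4.3.3 (lmFit, eBayes with trend) compared the genotypes, tested on simulated data first. The number of arrays limits the precision, and the median SE of a change was 0.203. Since nothing more is said of the biological replicates, p values cover only the spread between these samples. Deviations from the genotype means correlated at r = 0.592, 0.356 and 0.155 between arrays of the same replicate number across probe sets, which is taken as pairing. The members, lists and tests were chosen with earlier results of these data known. The named genes are SPCH and FAMA, measured list members, their neighbours on the chromosome, and the 5 genes most like each.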

Additional observations from a re-analysis of the deposited data

How the results depend on the processing

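SPCH and FAMA read lower in pvip1 pvip2 under every alternative run, 18 for each. Both lay below the filter at the 60th percentile, which gave no value. SPCH was called with the replicate block (-0.59, adjusted p = 0.042), the filter at the 20th percentile (-0.59, 0.0487), no variance trend (-0.59, 0.0444) and array weights (-0.67, 0.0171). FAMA was called with the block (-0.60, 0.0369), array weights (-0.57, 0.0365), 64 added before log2 (-0.21, 0.0493) and the block without Col-0 replicate 3 (-0.66, 0.0395). The cause of these differences was not tested. The fits of the block without Col-0-labelled replicate 1 or 3 were chosen after seeing the data. The adjusted p ran from 0.0171 to 0.168 for SPCH and from 0.0365 to 0.2 for FAMA. The count of called probe sets was 2803, or 4129 with the replicate block, 4251 with the block and without Col-0 replicate 3, 1826 with the filter at the 60th percentile, 978 on the first station alone, and 1654 to 2741 without 1 array, where fewer arrays or probe sets entered. FAMA minus SPCH changed sign around 0 without 1 array (-0.115 to 0.101). Other uncalled changes near 0 also changed sign. Without 1 array CRSP ran from -0.525 to 0.0698, AGL16 from -0.219 to 0.257, BHLH57 from -0.239 to 0.152, SIM from -0.103 to 0.146, EXPA7 from -0.0051 to 0.525, EXPA18 from -0.0783 to 0.384 and AT3G24130 from -0.0722 to 0.0715. On the first station alone CRSP stood at 0.014, BHLH57 at 0.234, SIM at -0.0648 and AT3G24130 at 0.0427, the same values as with the block and without Col-0 replicate 3. With the block and without Col-0-labelled replicate 1 AGL16 stood at -0.11 and SIM at -0.029. With array weights AGL16 stood at -0.0323 and PATROL1 at -0.0014, and with quantile normalization AT3G24130 stood at 0.0284. Among called genes of the lists, the call was lost under 1 of 19 alternatives for EPFL9, 8 of 18 for SOL1, 1 of 18 for ACR4, 5 of 19 for LHCB4.2 and 0 of 19 for PYK10. The weak signal of SPCH limits how well the size of its change is known.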

Other observations

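None of the 3 measured genes next to SPCH and FAMA in the gene table was called by limma without the level filter, with or without the replicate block, and 1 had an unadjusted p under 0.05, TRY with the block (0.0478). TRY (AT5G53200), a small MYB protein that represses leaf hairs and lies on one side of SPCH, read 3.96, 3.31 and 3.48 in the pvip1 pvip2 arrays, against 4.28, 3.88 and 3.73 in the Col-0-labelled arrays. The genotypes overlapped, and its change of -0.38 (SE 0.22) had an adjusted p of 0.325 from limma without the level filter. AT5G53220, on the other side, stood at -0.13 (SE 0.080, adjusted p = 0.35 without the filter), with no array above 2.76. Its genotypes did not overlap, as in 21.7% of tested probe sets in the lower direction. AT3G24130, on one side of FAMA, stood at -0.015 (SE 0.11, adjusted p = 0.955 without the filter). These 3 neighbours lay below the tested level of 3.81 on average, and the gene on the other side of FAMA was not analysed here.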
